A study of Mus musculus with 6 samples.

Results

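The genes described here are the 9 members of the renin-angiotensin system Ren1, Agt, Ace, Agtr1a, Agtr1b, Mas1, Atp6ap2, Enpep and Mme (in this order, Entrez gene identifiers 19701, 11606, 11421, 11607, 11608, 17171, 70495, 13809 and 17380), picked by symbol, and all 9 were found among the 17684 genes of the series. Bulk RNA-seq was run on whole kidneys of 6 mice in 2 groups of 3. All of the animals were db/db, which lack a working leptin receptor and become obese and diabetic, on the strain written as C57 BLKS/L, and all were 50 weeks old. The Db group had received saline and the Db + Ato10 group atorvastatin, an inhibitor of the cholesterol-synthesis enzyme HMG-CoA reductase, at 10 mg/kg on each day of dosing, in both cases for 40 weeks. By the methods of the study it was given by gavage on most days of each week, to male mice only. The protocol field names atorvastatin for all 6 animals, while the field that separates the groups names saline for 3 of them, and the latter was followed. The kidneys come from animals that survived the treatment, and the effect of the drug and the selection by survival cannot be told apart. The comparison asks how long statin treatment was reflected in the RNA of the diabetic kidney.

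Renin, an aspartyl protease released by juxtaglomerular cells of the afferent arteriole, cuts angiotensin I from angiotensinogen, and angiotensin-converting enzyme trims it to angiotensin II. Angiotensin II acts through the type 1 receptor to narrow vessels, retain sodium and, by a feedback loop, hold renin back. Aminopeptidase A and neprilysin break angiotensin peptides down or divert them to others, among them the ligand of the Mas receptor, and the kidney makes every protein of this chain locally.

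Sequencing depth was similar, with 11381678 to 13134930 expected counts per library in Db and 13133241 to 14667909 in Db + Ato10. A count of 3, taken as the detection floor, corresponded to 0.198 to 0.260 CPM (the count scaled to a common library size), and these floors cover counting error only, whereas the edgeR intervals below also hold the spread between animals. Values below are CPM after TMM scaling (the trimmed mean of M-values, which corrects for library composition) unless another unit is named. Db replicate 1 held 2 counts over the 4 Y-linked genes Ddx3y, Eif2s3y, Kdm5d and Uty, against 1419 to 2116 counts in the other 5 libraries, which goes against a male animal. Results were therefore also computed without it. On the first principal component, 71.1% of the variance, Db + Ato10 replicate 1 lay at 107 and replicate 2 at 46.1, while Db + Ato10 replicate 3 lay at −18.8, close to the Db libraries at −55.4, −26.9 and −52.0.

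Cell type markers differed between the same libraries. The 10 proximal tubule markers summed to 15980, 8349 and 10570 TPM (transcript abundance, which corrects for gene length) in Db replicates 1, 2 and 3, and to 3871, 6483 and 10300 TPM in the Db + Ato10 replicates. Their most abundant gene, Kap, stood at 8826, 2294 and 3069 TPM in Db and at 2848, 2213 and 3042 TPM in Db + Ato10. The 8 leukocyte markers, led by the lysozyme gene Lyz2, summed to 73.1, 153 and 116 TPM in Db and to 4983, 1143 and 166 TPM in Db + Ato10. The 5 podocyte markers, led by Podxl, summed to 145 TPM in Db replicate 1 and 102 TPM in each of the other Db libraries, and to 137, 57.8 and 94.6 TPM in Db + Ato10. Thus replicate 1 of Db + Ato10 was high in leukocyte and low in proximal tubule RNA. Replicate 2 was, to a lesser extent, also above every Db library in leukocyte RNA and below every Db library in proximal tubule RNA. Its summed podocyte markers were the lowest of all libraries. The part of these markers in the results below was not tested. In whole tissue, fewer cells of a type and less RNA per cell cannot be told apart.

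By mean TPM over the 6 libraries, Agt was the most abundant member at 147, followed by Atp6ap2 at 91.4, Ren1 at 82.5, Enpep at 67.9, Ace at 52.4, Mme at 36.3 and Agtr1a at 25.4. Neighbours in this order overlapped in their ranges over the libraries. Mas1, at 0.272 TPM, and Agtr1b, at 0.0200 TPM, lay far below, and neither overlapped with its upper neighbour. Agt was higher than 93.8% of all genes of the series by this measure, and Mas1 higher than 17.1%.

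Of the 9 members, 8 passed the filter of at least 10 counts in at least 3 libraries, and Agtr1b did not. None of the 8 was called by edgeR (fold change over 1.5 and adjusted p under 0.05), where 0% of the 13679 tested genes were called. DESeq2 called 0 of the 8 as well, beside 6.46% of all tested genes. At an unadjusted p-value under 0.05 in edgeR, 0 of the 8 members were higher in Db + Ato10, against 11.2% of all genes, and 0 were lower, against 5.71% (16.9% in either direction). Nor were the 2 groups separated for any member, with 0 of 8 not overlapping beside 23.2% of all tested genes. The members' log2 fold changes of Db + Ato10 over Db were above 0 for 2 and below 0 for 6, with a median of −0.28, and the median over all tested genes was −0.01.

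**Figure D1:**
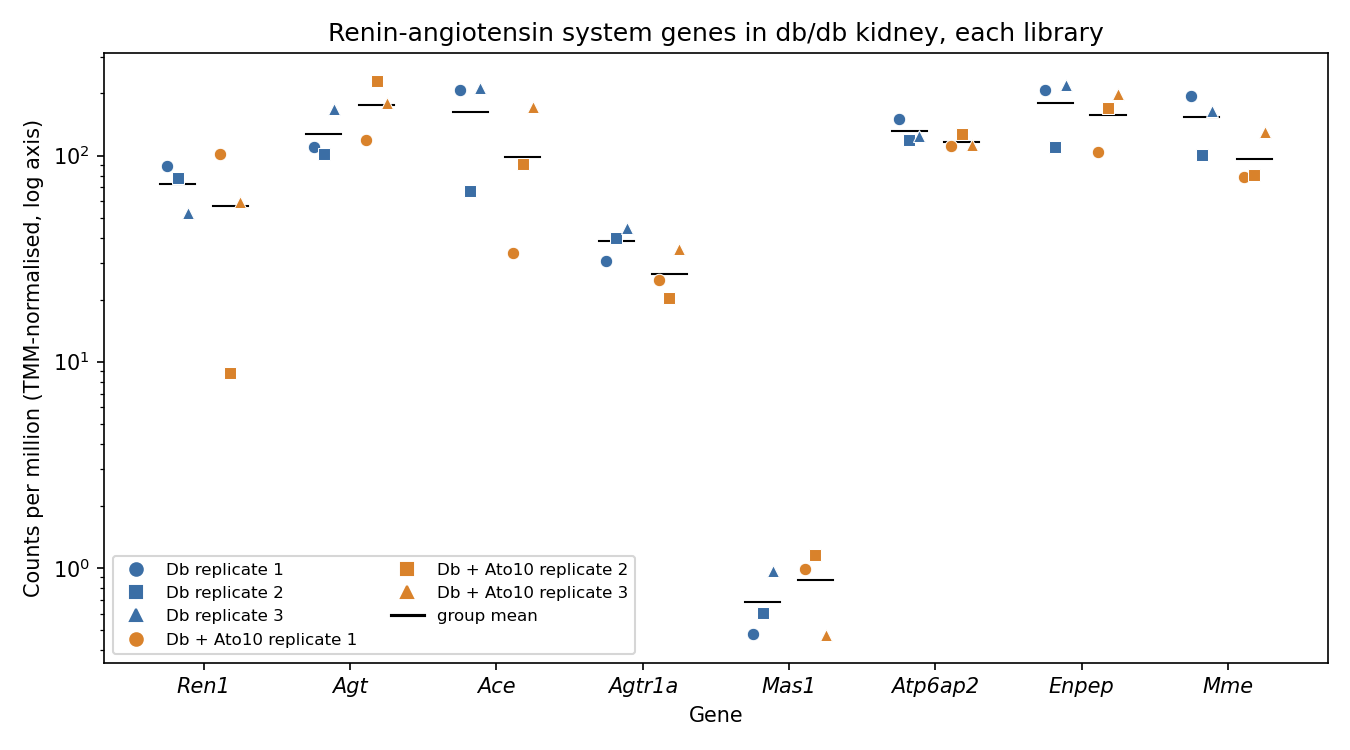
TMM-normalised CPM (log axis) of the 8 tested renin-angiotensin genes in each of the 6 kidney libraries, with Db in blue, Db + Ato10 in orange, 1 marker shape per replicate number and black lines at the group means. The groups overlap for each gene, and Ren1 in Db + Ato10 replicate 2 sits at 8.85 CPM, far under the other 5 libraries.

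Agt encodes angiotensinogen, the only known substrate of renin, which the liver secretes and the proximal tubule also makes. It was measured at 111, 102 and 169 CPM in Db and at 119, 231 and 179 CPM in Db + Ato10. Treated replicates 2 and 3 were the highest of the 6, but the lowest treated one lay under the highest Db library. The group means were 127 ± 36.4 and 176 ± 56.1 CPM (SD, n = 3), a log2 fold change of 0.47 with SE 0.30 (edgeR, adjusted p = 0.438, 95% interval −0.26 to 1.20). Leaving out Db + Ato10 replicate 2 gave 0.24, and leaving out Db replicate 3 gave 0.73. The 6 liver markers summed to 366, 292 and 434 TPM in Db and to 163, 530 and 662 TPM in Db + Ato10, led by Serpina1a. They did not move as a group, since 3 had log2 fold changes above 0 and 3 below. Alb and Fgb were named after their values were seen, and the groups overlapped for neither. Alb was at 27.3, 17.5 and 19.1 TPM in Db and 1.08, 1.30 and 14.6 TPM in Db + Ato10. Fgb went the other way, at 1.29, 9.46 and 0.96 TPM in Db and 17.5, 57.1 and 39.6 TPM in Db + Ato10. Its log2 fold change was 3.355 (edgeR, adjusted p = 0.239). Fgb was the 1 liver marker at an unadjusted p-value under 0.05 (16.7%, beside 11.2% of all tested genes that were higher), and DESeq2 called it. Ttr, also named after its values were seen, gave 206 TPM of the sum in Db + Ato10 replicate 2 and 163 TPM in Db replicate 1. It gave at most 5.58 TPM in each other library. The part of the liver markers in the Agt values was not tested.

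Ren1 encodes renin, the enzyme that limits the rate of the cascade. Its values were 89.0, 77.5 and 52.8 CPM in Db and 102, 8.85 and 59.2 CPM in Db + Ato10. The treated group thus held both the highest and the lowest library, a span of 11.5-fold, the widest of the tested members. Means were 73.1 ± 18.5 and 56.7 ± 46.7 CPM (SD, n = 3), and the log2 fold change was −0.37 with SE 0.75 (edgeR, adjusted p = 0.802), with a 95% interval of 0.225-fold to 2.68-fold. Without Db + Ato10 replicate 2 it was 0.16, and without Db + Ato10 replicate 1 it was −1.10, so the direction rested on 1 library. It was −0.93 with limma-voom, −0.85 with limma on FPKM and −0.98 with limma on TPM. Akr1b7, an aldo-keto reductase gene of renin cells that was chosen after its values were seen, was likewise lowest in that library, at 0.608 CPM against 2.17 to 3.82 CPM in the other 5. This value rested on 9 counts. Gja4, Gja5 and Rgs5, listed with Akr1b7 below, were also named after their values were seen. Gja4 and Gja5 were lowest in that library as well, at 3.65 and 2.90 CPM. Rgs5 was not, at 56.9 CPM against 50.2 CPM in Db + Ato10 replicate 3. Of the 5 podocyte markers, 3 (Nphs1, Podxl and Ptpro) were lowest there, while Wt1 and Synpo were not. Ptpro, Wt1 and Synpo were also named after their values were seen. All 6 endothelial markers, led by Emcn, were lowest in that library too, and their sum was 125 TPM there against 200 to 278 TPM in the other 5. Their part in the low Ren1 value was not tested. Some mouse strains carry a second renin gene, Ren2, nearly identical to Ren1. It was not analysed here, so any reads from such a copy could not be separated from those of Ren1.

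Ace encodes angiotensin-converting enzyme, found on endothelium and, abundantly, on the brush border of the mouse proximal tubule. Ace stood at 208, 67.0 and 212 CPM in Db and at 33.6, 91.4 and 171 CPM in Db + Ato10. Db replicate 2 lay below 2 of the 3 treated libraries, and the lowest value was in Db + Ato10 replicate 1, the library with the least proximal tubule marker RNA. Ace was lower in Db replicate 2 than in Db + Ato10 replicate 2. The summed proximal tubule markers were higher in the former, at 8349 against 6483 TPM. The part of these markers in the Ace values was not tested. With means of 162 ± 82.5 and 98.8 ± 69.2 CPM (SD, n = 3), the log2 fold change was −0.72 with SE 0.66 (edgeR, adjusted p = 0.562). It moved to −0.30 without Db + Ato10 replicate 1 and to −0.48 without Db replicate 3. Leaving out Db replicate 2 gave −1.09, and leaving out Db + Ato10 replicate 3 gave −1.37.

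Agtr1a encodes the main type 1 angiotensin II receptor of the mouse kidney, found on vessels, mesangium and tubules. Agtr1a stood at 30.7, 39.8 and 44.4 CPM in Db and at 24.8, 20.3 and 35.1 CPM in Db + Ato10. Treated replicates 1 and 2 lay below all of Db, and replicate 3 lay between the Db values, so the groups overlapped. Means of 38.3 ± 7 and 26.7 ± 7.56 CPM (SD, n = 3) gave a log2 fold change of −0.52 with SE 0.25 (edgeR, adjusted p = 0.329, 95% interval −1.11 to 0.07), and it was −0.34 without Db + Ato10 replicate 2. Without Db replicate 1, the library without Y-linked RNA, the groups of Agtr1a no longer overlapped, as held for 15.6% of all tested genes in that direction. The log2 fold change was then −0.65, and 0 members were lower at an unadjusted p-value under 0.05 beside 2.52% of all genes.

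Agtr1b, the second type 1 receptor gene of rodents and a close paralog of Agtr1a, had 0 counts in all 3 Db libraries and 0, 1 and 1 counts in Db + Ato10. All of these values are under the floor of 3 counts, so no fold change was computed, and the gene was not detectable at this depth in any library. Reads of the coding parts that both paralogs share could have been assigned to either.

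Mas1 encodes the Mas receptor, which binds a shorter angiotensin peptide with actions opposed to those of angiotensin II. It had 6, 7 and 12 counts in Db and 15, 17 and 6 counts in Db + Ato10, and its lowest counts in the 2 groups were the same. With a log2 fold change of 0.35 and SE 0.49 (edgeR, adjusted p = 0.707), a difference was not detectable at this depth. Leaving out Db replicate 1 gave 0.16, and leaving out Db + Ato10 replicate 3 gave 0.64.

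Atp6ap2 encodes the (pro)renin receptor, which is also an accessory subunit of the vacuolar proton pump. The 3 Db libraries had 150, 119 and 125 CPM and the treated ones 112, 127 and 112 CPM. The libraries lay close together, within 1.34-fold from lowest to highest, the narrowest span of the tested members. Means were 131 ± 16.6 and 117 ± 8.83 CPM (SD, n = 3), a log2 fold change of −0.17 with SE 0.15 (edgeR, adjusted p = 0.549, 95% interval −0.52 to 0.19), and it was −0.05 without Db replicate 1.

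Enpep encodes aminopeptidase A, which shortens angiotensin II by an amino acid. Enpep stood at 209, 111 and 220 CPM in Db and at 104, 170 and 198 CPM in Db + Ato10. Each group had 1 low library and 2 high ones. Means were 180 ± 60.2 and 157 ± 48.5 CPM (SD, n = 3) and the log2 fold change −0.19 with SE 0.34 (edgeR, adjusted p = 0.771), and it was 0.04 without Db + Ato10 replicate 1.

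Mme encodes neprilysin, a brush border and podocyte endopeptidase that cleaves angiotensin I, natriuretic peptides and kinins. Its RNA was measured at 195, 100 and 164 CPM in Db and at 78.7, 80.2 and 131 CPM in Db + Ato10. Treated replicates 1 and 2 lay below every Db library, whereas replicate 3 lay above Db replicate 2. From means of 153 ± 48.2 and 96.6 ± 29.7 CPM (SD, n = 3), the log2 fold change was −0.66 with SE 0.31 (edgeR, adjusted p = 0.329, 95% interval −1.42 to 0.09), and it was −0.44 without Db replicate 1.

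One treated library, Db + Ato10 replicate 3, weighed on these comparisons. Without it, edgeR called 8.18% of all tested genes and 0 of the 8 members, with Agtr1a at −0.76 and Mme at −0.94 on the log2 scale. DESeq2 without it called 2 of the 8 members, Agtr1a and Mme, beside 19.3% of all tested genes, a share near that of the members. That DESeq2 setting was chosen after seeing the data, as was the count of members whose groups did not overlap when a library was left out. This count was highest, 3 of 8, when Db replicate 2 or Db + Ato10 replicate 3 was left out, where 39% and 50.6% of all tested genes did not overlap either.

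Ace, Enpep and Mme, the 3 brush border peptidases among the members, were compared in pairs over the 6 libraries. On log2 CPM, Ace had a Pearson r of 0.953 with Enpep and of 0.874 with Mme, and Enpep and Mme had an r of 0.758. Ace also had an r of 0.992 with Anpep, the aminopeptidase N gene of the same membrane, added after its values were seen. These are descriptions over 6 libraries of 2 groups, and the part of the tubular content of a library in them was not tested. Ren1 and Ace had an r of −0.08, and Ren1 and Agt one of −0.84.

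For each tested member, the 3 genes closest to it over the 6 libraries were taken by the same measure. Gimap6, Mbd4 and the podocyte gene Nphs1 came nearest to Ren1, with r between 0.986 and 0.995. For Agt they were Slc1a4, Rtcb and Tc2n, and for Ace they were Sms-ps, Tecpr2 and P2rx3. Agtr1a had Wipi2, Ric3 and Rpap1, and Mas1 had Leprotl1, Ift74 and Mplkip. Atp6ap2 was nearest to Papola, Zscan20 and Plxna4, Enpep to Ndfip2, Usp5 and Usp7, and Mme to Rrn3, Wdr48 and Trappc10. The lowest of these r was 0.971, picked as the highest among 13679 genes over 6 libraries.

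Within a library, ratios of TPM do not depend on library size. Mme over Enpep was 0.670, 0.655 and 0.539 in Db and 0.549, 0.340 and 0.476 in Db + Ato10, with 1 treated library inside the Db range and 2 below it. The Agt to Ren1 ratio was 0.935, 0.994 and 2.41 in Db and 0.876, 19.6 and 2.28 in Db + Ato10, so that replicate 2 stood apart. The mean log2 differences were −0.47 and 1.38, with exact two-sided permutation p = 0.2 and p = 0.7, and adjusted over the 2 pairs 0.4 and 0.7. Leaving out Db + Ato10 replicate 2 gave −0.28 for Mme over Enpep and 0.11 for Agt over Ren1, and leaving out Db + Ato10 replicate 1 gave 2.35 for Agt over Ren1. Groups of 3 cannot give an exact p below 0.1. Agtr1b over Agtr1a was not formed because Agtr1b was at 0 in 4 libraries.

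The transcript table held 19 transcripts of the 9 members, of which 12 passed the same filter. None was called by edgeR or DESeq2, beside 0% of the 30175 tested transcripts in edgeR and 2.95% in DESeq2, and 0 of 12 had an unadjusted p-value under 0.05, beside 8.19%. Ren1, Agt, Agtr1b, Atp6ap2 and Enpep, 5 of the members, had 1 transcript each. For the other 4 the counts were divided by the software of the authors between models that share exons, so the shares are estimates.

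Ace has a somatic and an internal promoter, and the shares of its transcripts varied between libraries. The full-length somatic transcript, NM_207624.5, was given 70.1%, 19.2% and 57.1% of the gene's counts in Db and 0%, 4.53% and 42.1% in Db + Ato10. Transcript NM_009598.2, which starts within the gene and encodes the shorter form known from maturing sperm, was given 9.63%, 50.5% and 23.4% in Db and 63.8%, 56.1% and 29.3% in Db + Ato10. The remaining transcript, NM_001281819.1, was given between 19.4% and 39.3% in all libraries, more than the long form in Db replicate 2 and in Db + Ato10 replicates 1 and 2. The long form thus took the larger share in the libraries where Ace was highest, Db replicates 1 and 3 and Db + Ato10 replicate 3, and the groups overlapped for both shares. The log2 fold changes were −1.87 with SE 1.89 for the long form and 0.28 with SE 0.45 for the short form (edgeR, adjusted p = 0.837 and 0.906). The part that uneven read coverage along the gene played in these shares was not tested.

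Because these transcripts have separate starts, the 100 bases before each start are shown from RefSeq (GRCm38.p6, plus strand), in which the promoters lie 7241 bases apart. The somatic window is chr11:105967848-105967947, whose last bases overlap exon 1 of the GENCODE model. The internal window is chr11:105975089-105975188, in intron 12 of the 25-exon somatic model of GENCODE. Capitals mark TATAA or its reverse complement TTATA, which overlap here, and TGAGGTCA, a variant of the cyclic AMP response element, or its reverse complement TGACCTCA.
Ace somatic start: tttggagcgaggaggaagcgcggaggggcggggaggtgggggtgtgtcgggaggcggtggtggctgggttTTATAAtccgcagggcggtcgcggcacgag
Ace internal start: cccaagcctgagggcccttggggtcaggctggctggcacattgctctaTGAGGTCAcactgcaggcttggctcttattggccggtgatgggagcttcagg
Searched on both strands, TATAA was in 10.2% and TGAGGTCA in 1.03% of the 32851 promoter windows of this length. Each start held 1 of the 2 motifs, and a match is only a description of the letters.

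**Figure D2:**
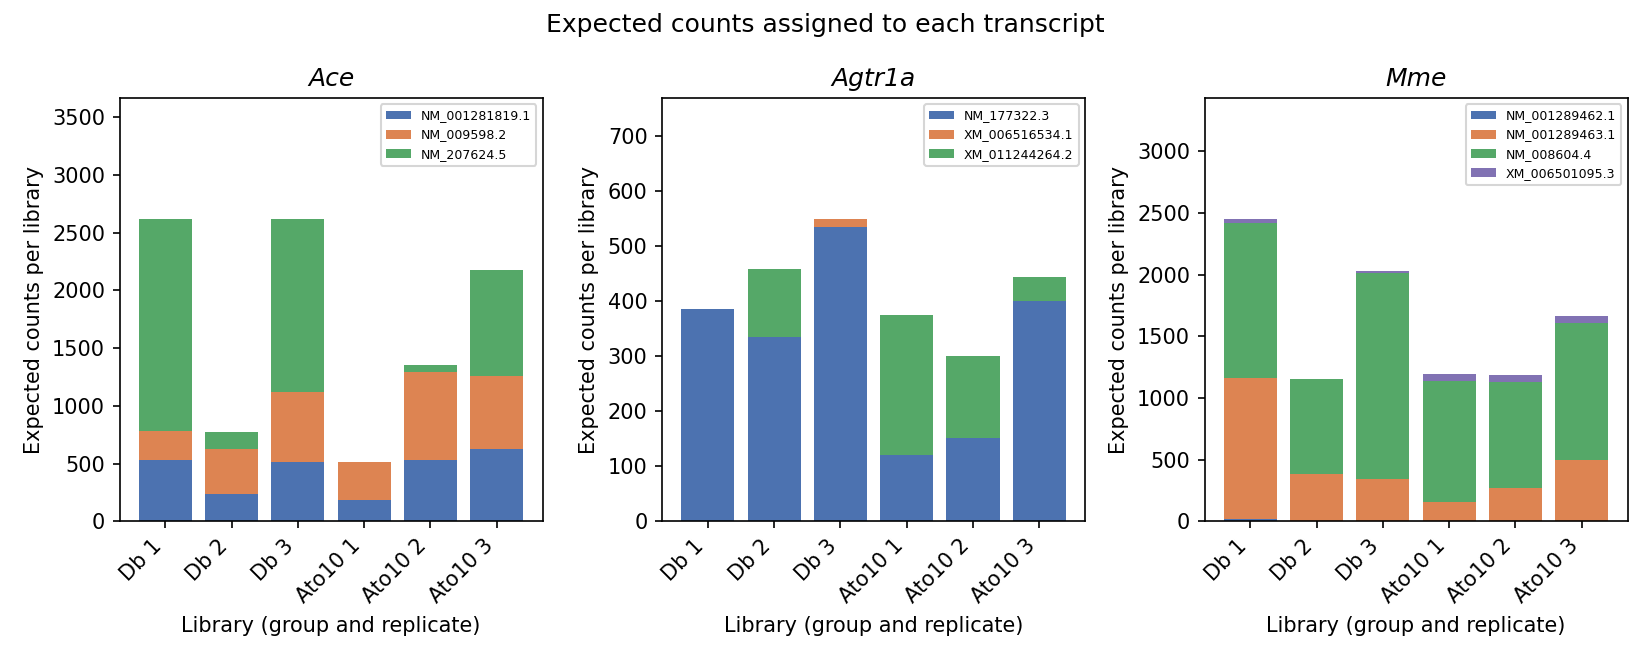
Stacked bars of expected counts assigned to each transcript of Ace, Agtr1a and Mme (y axis, not scaled for depth) in the 6 libraries (x axis, Ato10 stands for Db + Ato10). NM_207624.5 of Ace holds 70.1% of the counts in Db replicate 1 and 0% in Db + Ato10 replicate 1.

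For Agtr1a, the curated transcript NM_177322.3 was given 100%, 72.9% and 97.5% of the counts in Db and 31.8%, 50.5% and 90.2% in Db + Ato10. The predicted model XM_011244264.2 received most of the rest, up to 68.2% in Db + Ato10 replicate 1. The groups overlapped, since the third treated library exceeded Db replicate 2. For Mme, NM_008604.4 took between 51.4% and 82.5% in all libraries and NM_001289463.1 between 12.8% and 46.6%.

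Beyond the members, 60 genes in 5 lists were read around the pathway, of which 58 were analysed and 51 tested. By edgeR 0 of the 51 were called, whereas DESeq2 called 7, beside 6.46% of all tested genes. These 7 were Casr, Ptger4 and Ptgs2 of the renin release list, Arrb2 of the signalling list and Hsd11b2, Scnn1g and Nr3c2 of the aldosterone response. In settings chosen after seeing the data, DESeq2 called none of Casr, Ptger4, Ptgs2 and Arrb2 without Db replicate 1 or Db replicate 3. Of these genes, it called only Ptger4 without Db replicate 2, only Casr without Db + Ato10 replicate 1 and only Ptgs2 without Db + Ato10 replicate 2. All of them were called without Db + Ato10 replicate 3. The shares of all tested genes in these settings stand with the aldosterone response below. At an unadjusted p-value under 0.05 in edgeR, 5 of the 51 were higher (9.8%) and 9 lower (17.6%) in Db + Ato10, against 11.2% and 5.71% of all tested genes. Without Db replicate 1, 7 pathway genes were at this p-value in either direction, beside 1043 of 13588 tested genes. Without Db + Ato10 replicate 3 there were 21, beside 4038 of 13517. The groups did not overlap for 3 higher genes (5.88%, beside 12% of all genes) and for 11 lower genes (21.6%, beside 11.3%). The median log2 fold change of the 51 was −0.03.

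The first list held other peptidases and receptors of angiotensin peptides. Of 15 genes, 13 were analysed and 8 tested. Of the 8, 0 were called by edgeR or DESeq2, beside 0% and 6.46% of all tested genes. At an unadjusted p-value under 0.05 there were 0, beside 16.9% of all tested genes, and the median log2 fold change was 0.08. The groups did not overlap for 1 lower gene (12.5%, beside 11.3% of all tested genes), Klk1, which also stands in the kallikrein-kinin list. Lnpep, which encodes the insulin-regulated aminopeptidase that binds angiotensin IV, was at 7.23, 5.11 and 4.60 CPM in Db and 10.2, 5.47 and 3.94 CPM in Db + Ato10. Its log2 fold change was 0.21 with SE 0.41 (edgeR, adjusted p = 0.788), and −0.25 without Db + Ato10 replicate 1. Agtr2, the type 2 receptor gene, had 1, 2 and 4 counts in Db and 0 in every treated library, too few for a test.

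Some enzymes can make angiotensin II without Ace. The mast cell chymase gene Cma1 had 0 counts in Db and 12, 7 and 0 counts in Db + Ato10, and the cathepsin G gene Ctsg had 1, 0 and 0 counts in Db and 168, 1 and 0 in Db + Ato10. The Ctsg counts thus came almost wholly from Db + Ato10 replicate 1. Both genes were named after their values were seen, and neither was tested. The 6 mast cell markers analysed, of which Cma1, Cpa3 and Mcpt4 stand in both lists, were led by Kit, which other kidney cells also express, and which was at 6.74, 6.32 and 3.68 TPM in Db and 4.61, 4.73 and 3.55 TPM in Db + Ato10. They summed to 6.95, 6.48 and 4.29 TPM in Db and to 9.63, 7.50 and 3.55 TPM in Db + Ato10. The 4 protease markers Cma1, Cpa3, Mcpt4 and Tpsb2, named after their values were seen, each had at most 2 counts in any Db library, 9 to 16 in Db + Ato10 replicate 1, 2 to 8 in replicate 2 and 0 in replicate 3. Fcer1a, also named after its values were seen, had at most 1 count in any library.

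Among 18 genes of renin cells and of signals that set renin release, 17 were tested. At an unadjusted p-value under 0.05, 2 were higher (11.8%, beside 11.2% of all tested genes) and 3 lower (17.6%, beside 5.71%), and the median log2 fold change was −0.23. Nos1, the neuronal nitric oxide synthase of the macula densa, was at 3.10, 3.47 and 2.83 CPM in Db and 1.58, 1.28 and 1.65 CPM in Db + Ato10. Every treated library lay under every Db library (log2 fold change −1.05, SE 0.27; edgeR, adjusted p = 0.239). Casr, the calcium-sensing receptor gene of the thick ascending limb, also expressed by renin cells, was at 108, 143 and 98.4 CPM in Db and 74.0, 39.8 and 57.8 CPM in Db + Ato10. Again the groups did not overlap (−1.02, SE 0.26; edgeR, adjusted p = 0.239). Adcy6, an adenylyl cyclase that makes the cyclic AMP which triggers renin release, was at 196, 158 and 162 CPM in Db and 86.8, 123 and 128 CPM in Db + Ato10, also without overlap (−0.61, SE 0.20). The 6 distal nephron markers, which include genes of the thick ascending limb, had a median log2 fold change of −1.09, and their part in the values of Nos1, Casr and Adcy6 was not tested.

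The 2 genes of the list that were higher at that p-value were Ptger4 and Ptgs2. Ptger4, a receptor for prostaglandin E2 on renin cells and leukocytes, was at 3.26, 4.42 and 2.91 CPM in Db and 8.89, 7.76 and 5.28 CPM in Db + Ato10. All treated libraries were above all of Db (log2 fold change 1.05, SE 0.30; edgeR, adjusted p = 0.239). Ptgs2, the inducible cyclooxygenase gene of the macula densa, was at 1.91, 0.954 and 1.62 CPM in Db and 37.6, 3.51 and 1.58 CPM in Db + Ato10. One library carried the value, since the log2 fold change of 3.24 with SE 1.21 was 0.78 without Db + Ato10 replicate 1. In that library the leukocyte markers were highest, and their part in the Ptgs2 value was not tested.

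Of the 12 genes of angiotensin receptor signalling, all tested, 2 were higher and 2 lower at an unadjusted p-value under 0.05, 16.7% each way beside 11.2% and 5.71% of all tested genes, with a median log2 fold change of 0.08. The G protein genes Gnaq and Gna11, through which the type 1 receptor raises calcium, were named after their values were seen. Gnaq was at 69.5, 65.4 and 63.3 CPM in Db and 75.5, 77.0 and 58.8 CPM in Db + Ato10, and Gna11 was between 95.9 and 106 CPM in all 6 libraries. Both overlapped between the groups. Plcb1, a phospholipase C they switch on, was at 42.6, 30.6 and 39.5 CPM in Db and 11.4, 20.5 and 28.0 CPM in Db + Ato10, without overlap (−0.91, SE 0.33; edgeR, adjusted p = 0.261). Gna12, another G protein alpha subunit gene, was at 54.0, 45.5 and 68.2 CPM in Db and 30.6, 34.8 and 46.1 CPM in Db + Ato10, where the highest treated library just passed the lowest Db one (−0.59, SE 0.22).

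Arhgef1, which encodes a guanine nucleotide exchange factor activated by angiotensin II, was at 45.8, 50.1 and 47.1 CPM in Db and 107, 69.4 and 56.0 CPM in Db + Ato10, all treated libraries higher (0.70, SE 0.25; edgeR, adjusted p = 0.252). Arrb2, which encodes the arrestin beta-arrestin 2 that uncouples the receptor, was at 9.30, 15 and 11.3 CPM in Db and 83.9, 33.0 and 14.6 CPM in Db + Ato10. Its groups overlapped at the lowest treated library (1.89, SE 0.61). Both genes are also abundant in leukocytes and were highest in Db + Ato10 replicate 1, where the leukocyte markers were highest, and the part of those cells was not tested. Without that library the log2 fold change was 1.02 for Arrb2 and 0.41 for Arhgef1.

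The 8 genes of the aldosterone response, the adrenal arm of the system in the distal nephron, were all tested. At an unadjusted p-value under 0.05, 4 were lower, beside 5.71% of all tested genes, and 0 higher. The same 4 did not overlap between the groups, as 11.3% of all tested genes did not in that direction. DESeq2 called 3 of the 8, beside 6.46% of all tested genes. Of these 3, DESeq2 called only Hsd11b2 without Db replicate 1, beside 195 of 13588 tested genes. It called only Scnn1g without Db replicate 2, beside 623 of 13546. It called 0 of them when Db replicate 3 (223 of 13586) or Db + Ato10 replicate 2 (372 of 13432) was left out. It called Hsd11b2 and Scnn1g without Db + Ato10 replicate 1, beside 313 of 13415. All 3 were called without Db + Ato10 replicate 3, beside 2614 of 13517 tested genes (19.3%). These settings were chosen after seeing the data. The median log2 fold change was −0.50. Hsd11b2, whose product keeps glucocorticoids off the mineralocorticoid receptor, was at 171, 197 and 195 CPM in Db and 133, 104 and 115 CPM in Db + Ato10 (−0.68, SE 0.15; edgeR, adjusted p = 0.239). Scnn1g, the gamma subunit gene of the epithelial sodium channel, was at 89.4, 76.3 and 79.5 CPM in Db and 42.8, 43.8 and 56.3 CPM in Db + Ato10 (−0.78, SE 0.16; edgeR, adjusted p = 0.239). Nr3c2, the mineralocorticoid receptor gene, was at 13.8, 16.0 and 14.0 CPM in Db and 3.69, 6.62 and 9.53 CPM in Db + Ato10 (−1.14, SE 0.35; edgeR, adjusted p = 0.239). Scnn1b, the beta subunit gene, was at 83.9, 106 and 74.0 CPM in Db and 72.3, 61.7 and 65.0 CPM in Db + Ato10, with a smaller gap (−0.41, SE 0.17). The value of Scnn1b was −0.25 without Db replicate 2. The other 4 genes, named after their values were seen, overlapped between the groups. Their log2 fold changes were −0.597 for Sgk1, −0.395 for Scnn1a, −0.017 for Nedd4l and 0.375 for Tsc22d3. Without Db replicate 1 the value of Sgk1 was 0.067.

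With each library left out in turn, the log2 fold changes lay between −0.58 and −0.77 for Hsd11b2, between −0.70 and −0.91 for Scnn1g, between −0.85 and −1.50 for Nr3c2 and between −0.25 and −0.52 for Scnn1b. Without Db + Ato10 replicate 3, edgeR called 3 of the pathway genes, Scnn1g, Nr3c2 and, among the signalling genes, Arrb2, in a setting that called 8.18% of all tested genes. The 6 distal nephron markers, led by Umod, summed to 5278, 5843 and 5241 TPM in Db and to 3384, 1767 and 3952 TPM in Db + Ato10. In each of the 3 treated libraries the sum was under every Db library. Lower values with an unadjusted edgeR p below 0.05 were found for 4 markers (66.7%), beside 5.71% of all tested genes. The part of these distal nephron markers in the lower aldosterone response genes was not tested.

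**Figure D3:**
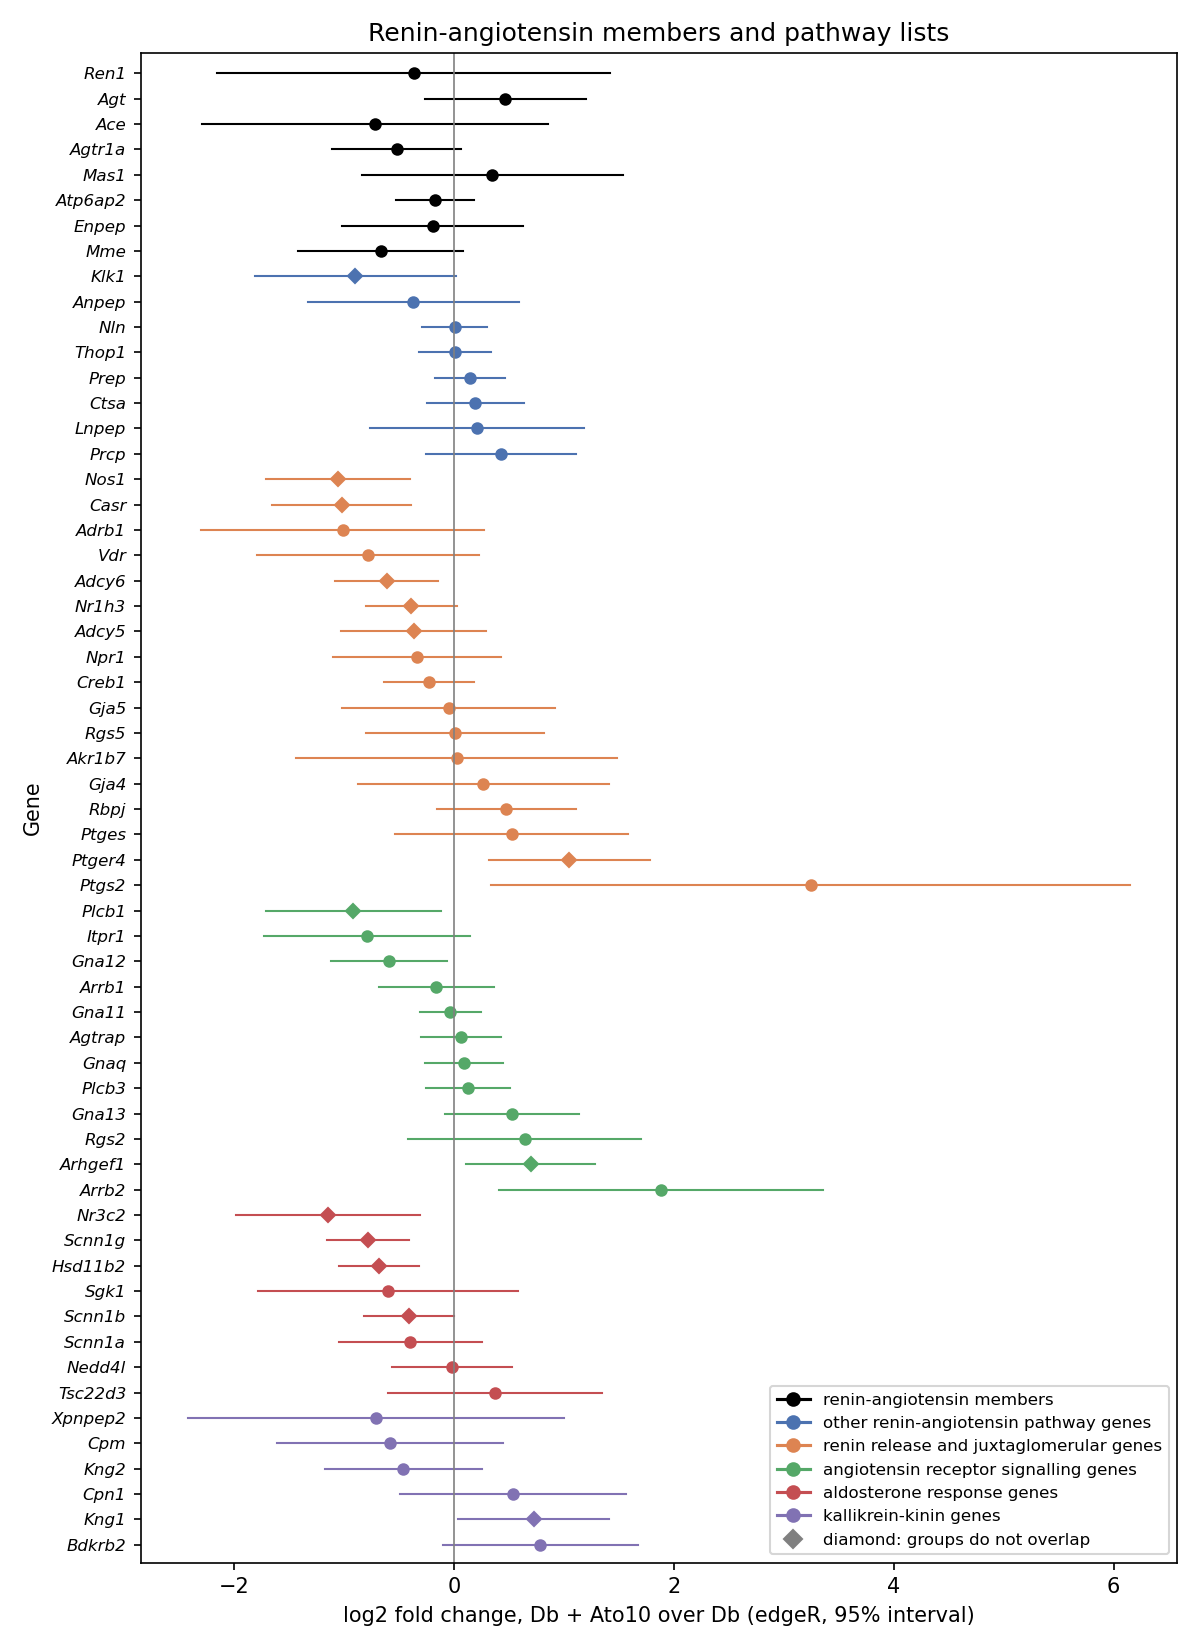
Log2 fold change of Db + Ato10 over Db (x axis) with its 95% interval from edgeR for the 8 tested members and the 51 tested pathway genes (y axis), coloured by list, with diamonds where the 2 groups do not overlap. No member has a diamond, and the 4 red diamonds of the aldosterone response lie below 0.

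Of 8 kallikrein-kinin genes, 7 were tested. At an unadjusted p-value under 0.05, 1 was higher (14.3%, near the 11.2% of all tested genes) and 0 lower, and −0.46 was the median log2 fold change. Kng1, a kininogen gene, was at 5.40, 4.33 and 3.39 CPM in Db and 8.43, 7.76 and 5.51 CPM in Db + Ato10, every treated library higher (0.73, SE 0.29; edgeR, adjusted p = 0.282). Kng2 is a close paralog and the Kng1 counts were not whole numbers, so reads may have been shared between them. Klk1, the tissue kallikrein gene and the most abundant of the list, was singled out after its values were seen. It stood at 5519, 6645 and 5001 TPM in Db and at 3240, 1709 and 3626 TPM in Db + Ato10, without overlap (−0.90, SE 0.38; edgeR, adjusted p = 0.301), and the log2 fold change was −0.59 without Db + Ato10 replicate 2. The summed distal nephron markers were lowest in that same library, and their part in the Klk1 values was not tested.

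The 12 listed subunits of the vacuolar proton pump, to which Atp6ap2 is an accessory, had log2 fold changes above 0 for 6 and below 0 for 6, and their median was −0.06. One, Atp6v0a1, was higher at an unadjusted p-value under 0.05 (8.33%, beside 11.2% of all tested genes), at 73.8, 76.8 and 69.0 CPM in Db and 101, 113 and 81.0 CPM in Db + Ato10 (0.42, SE 0.16; edgeR, adjusted p = 0.268). Atp6v0c, named after its values were seen, was the most abundant subunit, at 1034, 1078 and 1021 TPM in Db and 1122, 1154 and 1014 TPM in Db + Ato10. A further subunit gene, Atp6v1b1 of intercalated cells, stood among the distal nephron markers and not in this list, and was named after its values were seen. It was at 133, 117 and 106 CPM in Db and 54.1, 45.6 and 61.4 CPM in Db + Ato10, without overlap (−1.14, SE 0.17; edgeR, adjusted p = 0.239). DESeq2 called it (DESeq2, adjusted p = 9.8e-06), beside 6.46% of all tested genes. The part of the other distal nephron markers in its values was not tested.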

How the data were processed

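The authors sequenced kidney RNA on the BGISEQ-500 platform, and the submitters' processing notes name HISAT, Bowtie2 2.2.5 and the mouse build mm9. The deposited tables give expected counts, FPKM and TPM per gene, and expected counts and TPM per transcript, as the authors computed them. Expected counts were rounded and tested with edgeR 4.0.16 (R 4.3.3; TMM, quasi-likelihood F test, Benjamini-Hochberg adjustment over all tested genes or transcripts), keeping rows that reached 10 counts in 3 or more of the libraries. A gene was called at a fold change over 1.5 and an adjusted p under 0.05, which are the criteria of the study. DESeq2 1.42.0, limma 3.58.1, other filters and scalings, the replicate number as a block and each library left out served as alternatives. Each library is 1 mouse kidney. Correlations used log2 CPM with a prior count of 2. Ratios were tested by exact permutation (scipy 1.17.1, two-sided).

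The members and lists were chosen with earlier results of these data known. Genes were named by rule: all members, pathway and proton pump genes at an unadjusted p-value under 0.05, Agtr2, Ren2 and Lnpep, the most abundant marker of each list, any marker at 0 and the 3 genes most like each member. Other genes given values of their own are marked in the text as chosen after their values were seen. Mrgprd, Ren2, Tpsab1, Lep, Cyp11b1 and Cyp11b2 were not analysed here, and 2 further genes of the rule, ratios or lists are not reported here. The labels give poly-dT selection or rRNA depletion and do not say whether strand was used. Python 3.11.15 and matplotlib 3.10.9 served for tables and figures. The edgeR gene fit was tested on simulated counts, with the spread between animals taken from the Db libraries.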

Additional observations from a re-analysis of the deposited data

How the results depend on the processing

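Over all genes, edgeR called 0 of 13679, with a smallest adjusted p of 0.239, and 2314 had an unadjusted p-value under 0.05. DESeq2 called 884, and limma-voom, upper-quartile scaling, the 2 other filters and limma on FPKM or TPM called 0. With a library left out, edgeR or DESeq2 called between 0 and 2614, the highest without Db + Ato10 replicate 3. The members called were 0 under all of these except that last DESeq2 setting, which called 2, a range of 0 to 2. At an unadjusted p-value under 0.05, 0 members became 1 with the replicate block and 1 with limma on TPM (Agtr1a in both), and 0 to 2 with a library left out in edgeR (3 with DESeq2 without Db + Ato10 replicate 3). Members without overlap went from 0 to between 1 and 3 of 8 with a library left out, where 29.3% to 50.6% of all tested genes did not overlap. Pathway list genes called went from 0 to 7 with DESeq2, beside 6.46% of all tested genes, and to between 0 and 16 with a library left out. The 16 came from DESeq2 without Db + Ato10 replicate 3, beside 19.3% of all tested genes. The list of other pathway genes and the member transcripts had 0 calls under each alternative planned for them, while DESeq2 without Db + Ato10 replicate 3, added later, called Klk1 of that list.

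With a library left out, log2 fold changes ranged from −1.104 to 0.162 for Ren1 (reversed without Db + Ato10 replicate 2), from −0.444 to 0.043 for Enpep and from −0.253 to 0.477 for Lnpep (both reversed without Db + Ato10 replicate 1). The cause was not tested. Of 332 alternative values of 24 named genes, 319 kept their direction and side of the threshold and 10 became calls. DESeq2 with a library left out was chosen after seeing the data. So were the alternatives for the counts of pathway calls, of members at an unadjusted p-value under 0.05 and of members without overlap. The counts themselves were planned.

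Replicate numbers did not pair the samples: same-numbered libraries correlated in their deviations at −0.15, 0.06 and 0.21, not every library most with its own number. The block called 0 genes and 0 members, and gave Ren1 −0.80. Agtr1b passed neither filter of 10 counts. Mas1 had no value with 10 counts asked of every library, nor without Db replicate 3 or Db + Ato10 replicate 1 or 2. With 3 animals a group, intervals of Ren1 and Ace span over 8-fold.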

Other observations

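Markers of tissues that make or receive the hormones of the system were read as a check of the dissection. The 4 adipocyte markers analysed had at most 5 counts in any library, and 0 of them were tested. The 4 adrenal cortex markers analysed, led by Hsd3b1, summed to 4.74, 5.44 and 3.95 TPM in Db and to 4.42, 4.47 and 5.80 TPM in Db + Ato10. Cyp21a1, the adrenal 21-hydroxylase gene, singled out after its values were seen, had 0 counts in each Db library and 10, 2 and 2 counts in Db + Ato10.

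The 10 mesangial and smooth muscle markers, led by Tagln, summed to 115, 97.2 and 85.6 TPM in Db and to 279, 141 and 97.2 TPM in Db + Ato10. Of the 10, 2 were higher at an unadjusted p-value under 0.05 (20%, beside 11.2% of all tested genes). The 6 endothelial markers, led by Emcn, summed to 224, 200 and 218 TPM in Db and to 278, 125 and 210 TPM in Db + Ato10. At that p-value 1 of 6 was lower (16.7%, beside 5.71% of all tested genes). The 6 fibroblast markers, led by Dcn, summed to 29.0, 56.0 and 48.3 TPM in Db and to 570, 202 and 79.4 TPM in Db + Ato10, and all 3 treated libraries exceeded Db. At the same p-value 5 of 6 were higher (83.3%, beside 11.2% of all tested genes).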
